A study of Mus musculus with 48 samples.

Results

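The comparison is of the mouse ileum at week 3 with the ileum at week 2, the interval in which pups change from milk to solid food. It uses 6 of the 48 samples of the series, chosen by their labels alone: 3 samples labelled ileum week 2 and 3 labelled ileum week 3. All are C57Bl/6J mice from the Jackson Laboratory with no added genotype or treatment. Each sample is treated here as RNA from whole-thickness ileum. The smooth muscle gene Myh11 and the neuron gene Elavl4 were low in all 6, as given below, and the share of the muscle wall was not tested. The series also holds duodenum and the ages of day 0, 2, 4, 6 and 8 and week 4, with 3 samples in each of 16 groups. Pups stayed with the dam until day 21 and were then moved to chow, so week 2 samples come from suckling pups. The labels do not say whether the week 3 pups were killed before or after the move, and they describe the housing as standard germ-free.

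The suckling ileum is lined by enterocytes that take up milk protein whole by endocytosis and digest it in large lysosomes. At weaning, in rodents, the crypts give rise to enterocytes that digest sugars and peptides at the brush border and absorb the products. The terminal ileum also becomes the site where bile acids are recovered from the lumen and returned to the liver. The transcription factor Prdm1 (Blimp1) is known for holding the suckling enterocyte programme in place before this change.

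Total estimated counts ran from 18843625 to 39548914 per ileal sample, and mitochondrial genes took 13.4% to 16.9% of them. Levels are given below as CPM, counts scaled to an equal library total with the trimmed mean of M-values between samples, and a CPM compares a gene between samples rather than genes of different length with each other. Week 3 sample 3 had the lowest total and stood somewhat apart from its group, with rank correlations of 0.956 and 0.960 against the other week 3 samples, which correlated at 0.979 with each other. The sexes were not balanced: week 2 samples 1 and 2 and week 3 sample 1 had the female transcript Xist at 934 to 1698 CPM, and the other 3 had the Y-linked Ddx3y at 52.3 to 60.4 CPM. The labels call the replicates separate samples without tying them to named mice. The p-values therefore measure the spread between samples within groups, over all 14 groups of the 40 samples fitted. In whole tissue, fewer cells of a type and less RNA per cell cannot be told apart.

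Of 21617 genes tested, 7222 (33.4%) differed between the ages at an adjusted p under 0.05 in edgeR's quasi-likelihood test, and "rose" or "fell" is used only of these. The rises numbered 3137 (14.5% of genes tested) and the falls 4085 (18.9%). The median log2 change over all genes tested was -0.02. With size factors by relative log expression in place of trimmed means, the median was 0.07 and the calls were split into 3795 rises and 3420 falls, so the share of rises moved from 43.4% to 52.6%. Among the week 3 samples, the nearest to week 2 was sample 1 in 45.7% of the falls, and in the rises it was sample 3 in 41.3% and sample 1 in 39.6%. Changes past 2-fold were called for 3486 genes, 1412 up (6.53%) and 2074 down (9.59%), and changes past 8-fold for 287 up and 347 down. Counts of list members below are to be read against these shares.

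**Figure D1:**
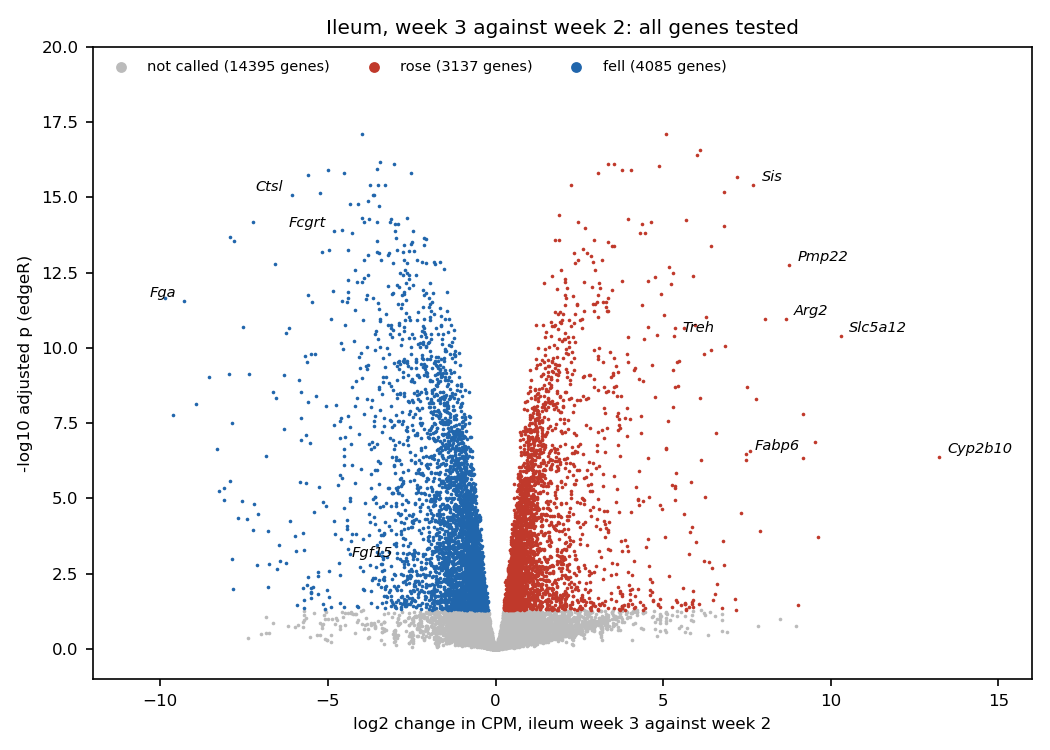
Each point is 1 of the 21617 genes tested, with the log2 change in CPM from ileum week 2 to week 3 on the x axis and the -log10 of the edgeR adjusted p on the y axis. Sis, Arg2, Pmp22 and Slc5a12 lie far to the right and Ctsl, Fcgrt and Fga far to the left, and Cyp2b10 lies farthest right because it had no count at week 2.

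Transcripts for the machinery that takes up whole milk proteins fell, but not in every part. Of the 12 genes listed for endocytic uptake and IgG transport, all tested, 8 fell and none rose, with a median log2 change of -1.49. Fcgrt, the neonatal Fc receptor that carries maternal IgG across the epithelium (chr7:45092990-45103851, minus strand, GRCm38), stood at 2129, 1156 and 1633 CPM at week 2 and at 72.1, 52.4 and 50.1 CPM at week 3. Its lowest week 2 sample was far above its highest week 3 sample (log2 change -4.82 ± 0.30 SE, adjusted p = 1.29e-14).

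Dab2, an endocytic adaptor of the suckling enterocyte, was measured at 929, 792 and 736 CPM before and at 33.9, 17.0 and 16.4 CPM after (log2 change -5.19 ± 0.33 SE, adjusted p = 6.48e-14). Mcoln3, an endosomal cation channel, fell from 326 to 415 CPM to 17.0 to 35.3 CPM. Lrp2, the giant receptor megalin, fell from 30.4 to 39.5 CPM to 0.270 to 2.35 CPM. Its chaperone Lrpap1 fell too (log2 change -1.75), and no fall was called for Cubn and Amn. Cubn, which encodes cubilin, the receptor for vitamin B12 with intrinsic factor, stood at 1312, 1326 and 1509 CPM and then at 1649, 1718 and 1843 CPM. Every week 3 sample was above every week 2 sample, but the log2 change of 0.33 ± 0.24 (SE) did not pass the test across all groups (adjusted p = 0.309). It passed when only the 6 ileal samples were fitted (log2 change 0.41, adjusted p = 0.0437). Amn, the membrane anchor of cubilin, had a log2 change of -0.49 (adjusted p = 0.193). Within the uptake list, the IgG receptor and the adaptor lost most of their transcript, and no loss was called for the vitamin B12 receptor.

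Lysosomal genes gave the most uniform fall of the lists. All 33 listed enzymes and membrane proteins were tested, 31 fell, none rose and the median log2 change was -1.85. Their summed level went from 17315 to 19854 CPM at week 2 to 3118 to 4563 CPM at week 3. The 2 members that were not called, Npc1 and Acp2, had log2 changes of -0.28 and -0.30. Ctsl, the protease cathepsin L (chr13:64359337-64370890, minus strand), had the largest fall of the list. Its CPM values were 3548, 2504 and 3068 at week 2 and 72.7, 35.0 and 27.0 at week 3 (log2 change -6.08 ± 0.33 SE, adjusted p = 8.57e-16). Week 3 sample 1 kept the highest level of its group, as it did for Fcgrt, Dab2, Mcoln3 and Ass1.

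Ctsh, another cathepsin, fell from 196 to 228 CPM to 14.6 to 19.7 CPM. The glycosidases differed more in the size of their falls. Glb1, the lysosomal acid beta-galactosidase, went from 467, 473 and 540 CPM to 113, 75.0 and 59.7 CPM (log2 change -2.58 ± 0.23 SE). Neu1, a sialidase that trims milk and mucin glycans, went from 595 to 649 CPM to 170 to 224 CPM (log2 change -1.61). Lamp2, a protein of the lysosomal membrane, had a log2 change of -1.41. In each of these the samples of the ages did not overlap.

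The upstream bases of Gla, the lysosomal alpha-galactosidase, are shown because they hold the palindrome TCACGTGA, known as the CLEAR element of lysosomal genes, 2 times (capitals). The stretch is chrX:134601126-134601255 on the minus strand of GRCm38.p6, from RefSeq.
Gla: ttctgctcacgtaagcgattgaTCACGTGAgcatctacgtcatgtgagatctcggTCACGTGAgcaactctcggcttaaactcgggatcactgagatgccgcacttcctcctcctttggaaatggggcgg
The gene itself went from 62.7, 67.1 and 75.5 CPM to 12.6, 9.09 and 6.37 CPM. In RefSeq windows of 300 bases around gene starts, this palindrome, read on both strands, occurred in 1.12% of 27025 genes and in 1.77% of the 13924 genes tested that had a window. It was present in 3.22% of the 1430 falls over 2-fold that had a window and in 0.627% of 957 such rises. Among the 24 lysosomal genes with a window, Gla, Ctsa and Ctsd held it (12.5%). A match is a description of letters only.

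Transcripts for digestion at the brush border moved the other way. Of 4 disaccharidase genes, 3 rose and none fell, with a median log2 change of 4.22. Sis, sucrase-isomaltase, which splits sucrose and starch fragments (chr3:72888557-72967863, minus strand), was at 17.1, 21.7 and 23.0 CPM at week 2 and at 4178, 4288 and 4260 CPM at week 3. The week 3 samples lay close together and far above every week 2 sample (log2 change 7.69 ± 0.39 SE, adjusted p = 3.91e-16).

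Mgam, maltase-glucoamylase, was already transcribed in suckling pups at 643, 867 and 833 CPM and reached 6981, 6667 and 6731 CPM. Treh, which splits the mushroom and insect sugar trehalose, went from 3.40 to 4.26 CPM to 88.7, 217 and 161 CPM. Lct, lactase, which digests milk sugar, stood at 2425, 1738 and 2297 CPM and then at 1186, 1549 and 1551 CPM. All 3 later values were below all 3 earlier ones, yet the log2 change of -0.59 ± 0.47 (SE) did not pass the test (adjusted p = 0.36). At week 4 lactase varied widely, at 1522, 106 and 261 CPM. The called changes of sugar enzymes by week 3 were therefore gains, and lactase was still at 1186 CPM or more in each of the 6 samples.

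The Sis promoter is shown because this gene went from about 20.6 CPM on average to 4242 CPM. The 250 bases before its RefSeq start are chr3:72967864-72968113 on the minus strand of GRCm38.p6, and the capitals mark TTTATTG on the reverse strand, a sequence that CDX factors are known to bind.
Sis: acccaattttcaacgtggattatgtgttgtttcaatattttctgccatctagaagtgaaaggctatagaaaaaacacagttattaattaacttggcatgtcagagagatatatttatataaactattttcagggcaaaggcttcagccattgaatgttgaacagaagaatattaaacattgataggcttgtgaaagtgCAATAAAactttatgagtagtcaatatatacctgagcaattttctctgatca
TTTATTG occurred in 5.33% of all genes' windows, in 3.64% of those of genes tested, in 4.49% of rises over 2-fold and in 2.94% of falls over 2-fold. The stretch also holds AGTGAAAG, searched as a PRDM1 motif and not marked. That motif occurred in 1.56% of all genes' windows and in 1.48% of those of genes tested. Its share was 2.19% in rises over 2-fold and 1.05% in falls over 2-fold. Cdx2, an intestinal CDX factor, was measured at 116 to 129 CPM and then at 109 to 132 CPM, with a log2 change of 0.00 (adjusted p = 0.993). Cdx1, another CDX gene, rose. Whether either factor acts on Sis was not tested.

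**Figure D2:**
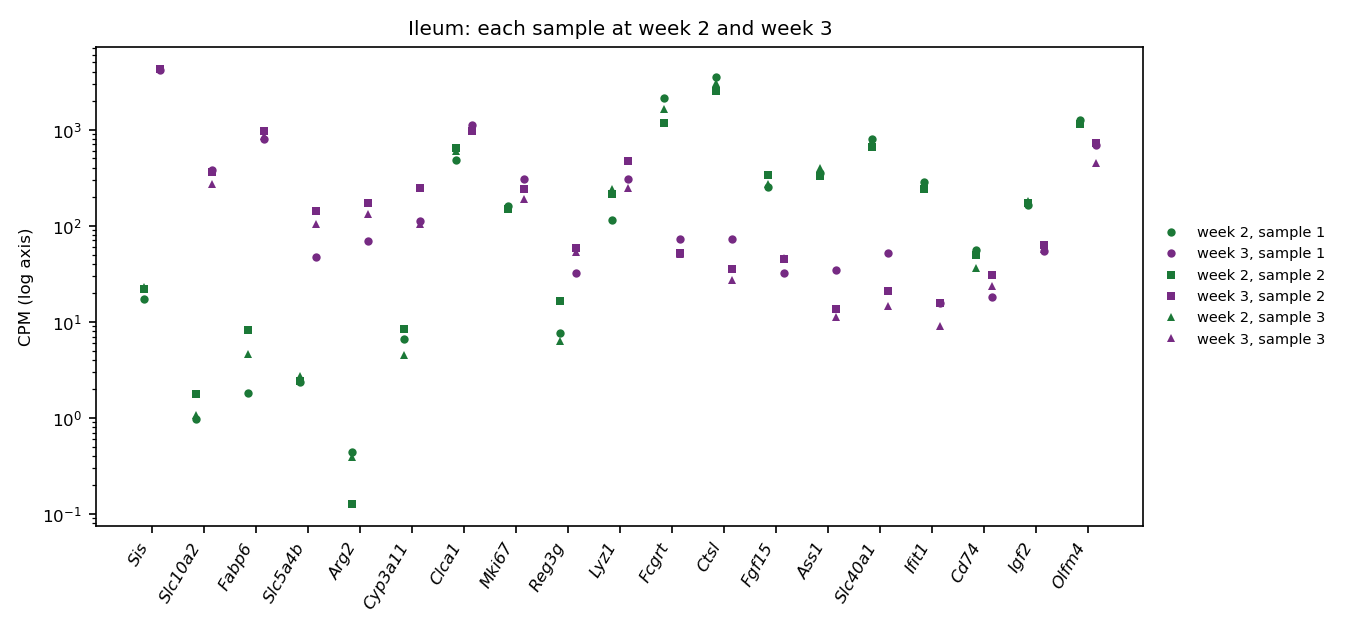
CPM on a log axis for 19 genes in the ileum, with week 2 samples in green, week 3 samples in purple and the symbol giving the sample number. The groups are far apart for Sis, Slc10a2, Fabp6, Fcgrt and Ctsl, and close for Clca1, Mki67, Cd74 and Lyz1.

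Transcripts for peptide digestion and uptake rose as well. Of the 13 brush border peptidases tested out of 14 listed, 9 rose and none fell, with a median log2 change of 1.41. Dpep1, a dipeptidase that also splits leukotrienes, was at 2.01, 3.40 and 3.81 CPM before and at 363, 560 and 436 CPM after (log2 change 7.20 ± 0.35 SE, adjusted p = 2.04e-16). Ggt1, gamma-glutamyltransferase, which breaks down glutathione outside the cell, went from 2.43 to 2.98 CPM to 195, 383 and 343 CPM. Anpep, aminopeptidase N, rose from 700 to 803 CPM to 4449 to 7132 CPM. Dpp4, dipeptidyl peptidase 4, which removes N-terminal dipeptides, had a log2 change of 2.11. Mep1a, a meprin subunit, was not called at a log2 change of -0.48 (adjusted p = 0.195). The called gains in this list thus ranged widely, with Dpep1 at the top.

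Among 14 amino acid and peptide transporters, 7 rose, 1 fell and the median log2 change was 0.71. Slc15a1, the proton-coupled carrier PEPT1 for dipeptides and tripeptides, was at 95.7, 69.7 and 75.2 CPM at week 2 and at 637, 1213 and 881 CPM at week 3 (log2 change 3.51 ± 0.34 SE). Slc6a19, a sodium-coupled carrier of neutral amino acids, rose from 508 to 559 CPM to 1128 to 1257 CPM, and Slc6a20a, a proline carrier, had a log2 change of 2.18. Slc7a9, a subunit of the cystine carrier, was flat at 247 to 262 CPM and 200 to 259 CPM. The single fall was Slc6a14, a broad amino acid carrier, which went from 6.05 to 21.9 CPM to 1.58 to 3.83 CPM.

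Transcripts for sugar uptake rose while those for the synthesis of glucose fell. Of 13 listed genes of hexose uptake, fructose metabolism and gluconeogenesis, 8 rose and 4 fell. Slc5a1, the sodium-glucose carrier SGLT1, went from 418, 349 and 445 CPM to 2415, 2753 and 2191 CPM (log2 change 2.6 ± 0.28 SE). Slc2a5, the fructose carrier GLUT5, went from 5.17 to 7.42 CPM to 42.0 to 65.4 CPM, and Slc2a2, the basolateral carrier GLUT2, had a log2 change of 1.47 (adjusted p = 0.0123). The mouse SGLT3 genes Slc5a4a and Slc5a4b had log2 changes of 7.5 and 5.3 and stood at 15.9 to 40.9 CPM and 47.2 to 143 CPM at week 3.

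G6pc, glucose-6-phosphatase, which frees glucose in the last step of gluconeogenesis, fell from 165, 142 and 155 CPM to 3.78, 7.70 and 10.6 CPM (log2 change -4.39 ± 0.32 SE, adjusted p = 1.42e-12). Fbp1, fructose bisphosphatase, fell from 222 to 276 CPM to 12.5 to 21.5 CPM. Pck1, which starts the pathway from oxaloacetate, fell less, from 709 to 1175 CPM to 289 to 425 CPM. No week 3 sample reached a week 2 sample for any of the 3.

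Genes of arginine metabolism changed in both directions. The suckling enterocyte makes citrulline and arginine from glutamine and proline, and the mature one passes citrulline to the kidney. Of 11 listed genes, 5 fell, 3 rose and the median log2 change was -0.34. Ass1, argininosuccinate synthase, which turns citrulline towards arginine, went from 356, 328 and 394 CPM to 34.1, 13.5 and 11.1 CPM (log2 change -4.19 ± 0.29 SE, adjusted p = 2.58e-13). Asl, the next enzyme, fell from 84.1 to 97.3 CPM to 14.8 to 25.4 CPM. Aldh18a1 and Oat, which form and use the intermediate between proline or glutamate and ornithine, had log2 changes of -2.37 and -1.34.

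Arg2, the mitochondrial arginase that breaks arginine down, was at 0.441, 0.127 and 0.390 CPM at week 2 and at 69.1, 172 and 131 CPM at week 3 (log2 change 8.66 ± 0.65 SE, adjusted p = 1.11e-11). Week 3 sample 1 was the lowest of its group for this gene and the highest for Ass1. The carbamoyl phosphate synthase Cps1 fell (log2 change -1.50) and the ornithine carbamoyltransferase Otc, its partner in making citrulline, rose (log2 change 0.89). The enzymes after citrulline thus fell, mitochondrial arginase rose, and those that make citrulline were mixed.

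Carriers of bile acids rose in the ileum. Of 11 tested genes out of 12 listed, 6 rose and 4 fell, with a median log2 change of 1.18. Slc10a2, the apical sodium bile acid carrier ASBT (chr8:5083219-5105351, minus strand), was at 0.966, 1.75 and 1.07 CPM at week 2 and at 377, 362 and 274 CPM at week 3 (log2 change 8.03 ± 0.60 SE, adjusted p = 1.05e-11). Fabp6, the ileal bile acid binding protein inside the enterocyte, was at 1.79, 8.21 and 4.56 CPM and then at 795, 976 and 859 CPM. Slc51a and Slc51b, which form the basolateral exporter, rose from levels that were already well above zero: Slc51b went from 35.8, 37.6 and 46.2 CPM to 184, 167 and 150 CPM. Import and binding thus started near zero at week 2, and export did not.

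Part of the sequence before Slc10a2 is shown because this carrier reached a level in the ileum that no duodenal sample of these ages had. The bases are chr8:5105352-5105537 on the minus strand of GRCm38.p6, and the capitals mark GTTAAT, any base and ATT on the reverse strand, letters known as part of an HNF1 site.
Slc10a2: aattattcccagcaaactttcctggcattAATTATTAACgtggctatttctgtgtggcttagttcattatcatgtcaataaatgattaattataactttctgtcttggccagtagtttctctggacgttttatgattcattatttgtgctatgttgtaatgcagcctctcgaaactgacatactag
This pattern, read on both strands, occurred in 0.47% of all genes' windows, in 0.417% of those of genes tested and in 0.836% of the rises over 2-fold. Of the 8 bile acid genes with a window, Slc10a2 was the one that held it.

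The hormone side of the pathway went down. Fgf15, which the ileum secretes to restrain bile acid synthesis in the liver, fell from 251, 335 and 271 CPM to 32.2, 44.4 and 46.2 CPM (log2 change -2.80 ± 0.65 SE, adjusted p = 0.00118). Nr0b2, the corepressor SHP, another gene known to be induced by the bile acid receptor FXR, fell from 4.83 to 5.86 CPM to 0.385 to 1.72 CPM. Malrd1, which is known to raise FGF15 output, rose by a log2 change of 1.81. Abcc2, an apical exporter of conjugates, fell from 1820 to 2446 CPM to 653 to 906 CPM, a call that was lost when all 48 samples entered the fit (adjusted p = 0.0565). Nr1h4, the gene of FXR itself, also fell. So Slc10a2, Fabp6, Slc51a and Slc51b rose, while Fgf15, Nr0b2, Nr1h4 and Abcc2 of the same list fell. Which of these changes follow FXR was not tested.

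**Figure D3:**
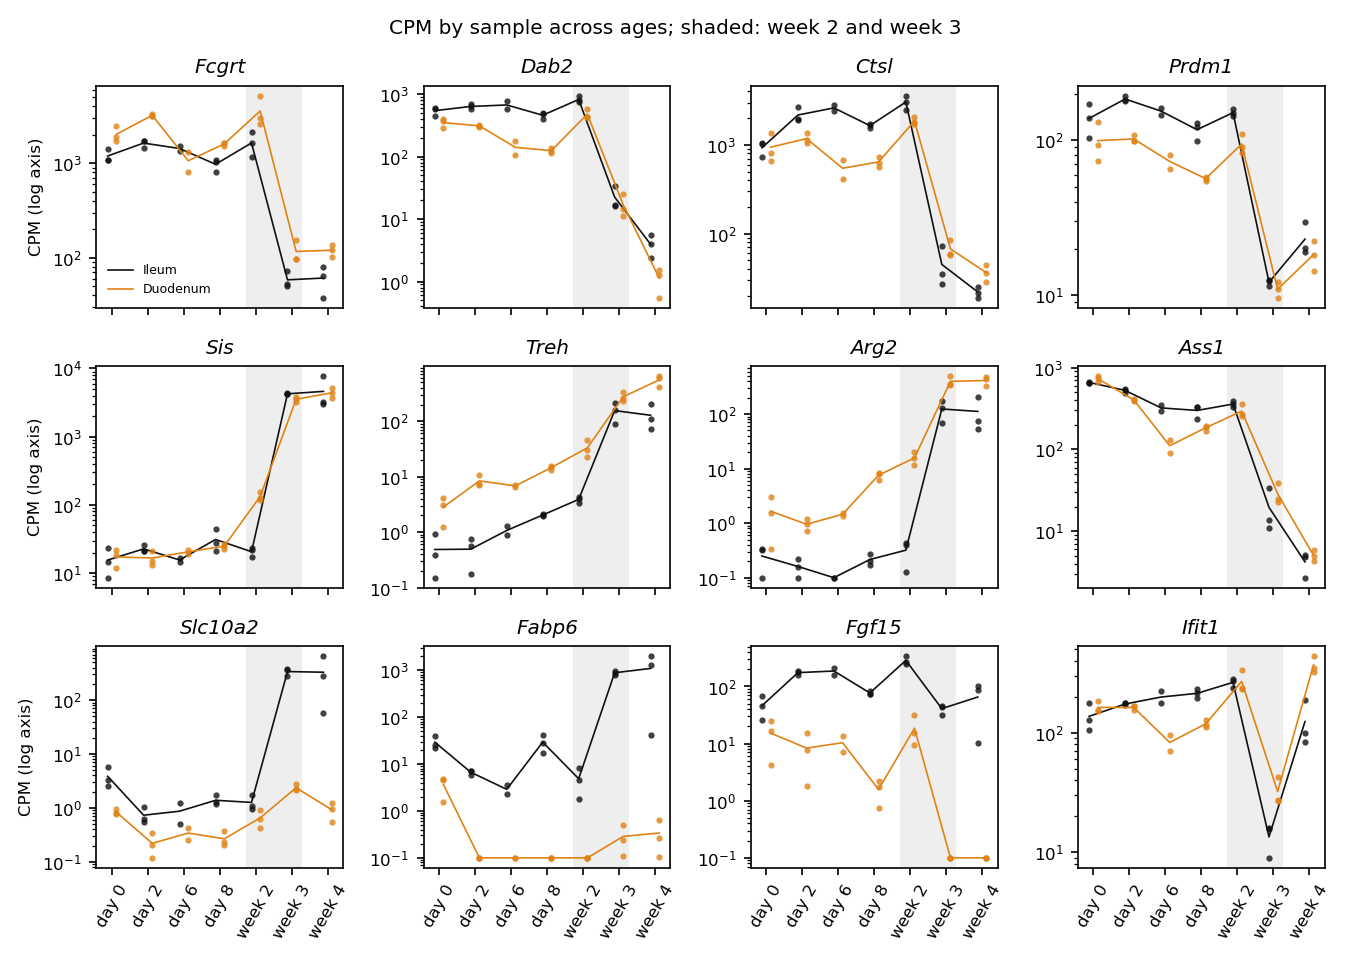
CPM on a log axis by age for 12 genes, with each sample as a point and a line through the group means, ileum in black and duodenum in orange; values under 0.1 are drawn at 0.1 and the week 2 to week 3 step is shaded. Fcgrt, Dab2, Ctsl and Prdm1 drop and Sis rises within the shaded step in both regions, and Slc10a2 and Fabp6 reach high levels in the ileum, not in the duodenum.

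Genes of fat handling changed in both directions. Of 20 genes of fat absorption and chylomicron assembly, 8 rose and 3 fell, with a median log2 change of 0.22. Plin2, which coats lipid droplets, fell from 272, 271 and 343 CPM to 38.4, 35.0 and 35.6 CPM (log2 change -3.02 ± 0.15 SE, adjusted p = 7.61e-17). The last enzymes of triglyceride synthesis parted: Dgat2 fell from 564 to 740 CPM to 181 to 268 CPM and Dgat1 rose from 186 to 191 CPM to 381 to 525 CPM. Fabp2, the intestinal fatty acid binding protein, rose from 723, 531 and 802 CPM to 4309, 8436 and 8327 CPM. Apob, the structural protein of chylomicrons, was not called (log2 change -0.50, adjusted p = 0.0584), and Mttp, which loads lipid onto it, rose by a log2 change of 1.04. Apoa4, an apolipoprotein that follows fat intake, had a log2 change of -1.16 (adjusted p = 0.0152), and 5 of the alternatives lost that call.

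Among 18 genes of ketogenesis and fatty acid oxidation, 8 fell and 3 rose. Cpt1a, which starts the entry of fatty acids into mitochondria, was at 352, 326 and 407 CPM at week 2 and at 198, 165 and 145 CPM at week 3 (log2 change -1.09 ± 0.13 SE, adjusted p = 5.41e-08). Slc25a20, the next carrier of that route, had a log2 change of -1.42. The samples of the ages did not overlap for either gene. Ppara, the receptor that is known to drive these genes, rose by a log2 change of 0.88, and its known target Angptl4, an inhibitor of lipoprotein lipase, went from 2.37, 2.53 and 3.32 CPM to 65.7, 84.4 and 99.8 CPM. Known targets of this receptor thus moved in both directions.

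Transcripts for cholesterol synthesis rose as a group. Of 20 listed genes, 16 rose, none fell and the median log2 change was 0.83. Mvk, mevalonate kinase, went from 2.68 to 2.93 CPM to 13.8, 14.2 and 10.6 CPM (log2 change 2.22 ± 0.23 SE, adjusted p = 1.61e-09), and its samples did not overlap between the ages.

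Detoxification genes rose with the largest median of the lists of more than 5 tested genes. Of 26 genes listed for drug and steroid metabolism, 23 rose, none fell and the median log2 change was 2.80. The list holds cytochromes P450, carboxylesterases, the transporter gene Abcb1a and nuclear receptors as well as conjugating enzymes. Ces2c, a carboxylesterase, went from 4.47, 3.90 and 4.46 CPM to 191, 324 and 306 CPM (log2 change 6.00 ± 0.27 SE, adjusted p = 3.87e-17). Cyp2b10, a cytochrome P450 known to be induced through the receptor CAR, had no count in any week 2 sample and stood at 8.44, 65.0 and 34.9 CPM at week 3. Set against a floor of 3 counts over the group, that is at least 1320-fold higher. Cyp3a11 went from 4.46 to 8.36 CPM to 104 to 245 CPM, and Cyp4b1 from 0.823 to 1.19 CPM to 41.9 to 119 CPM. Cyp3a25 and Ugt1a1 were not called, at log2 changes of 0.05 and 0.09.

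The main iron carriers fell. Of 11 tested genes for iron, calcium and vitamin D out of 13 listed, 5 fell and 2 rose. Slc40a1, ferroportin, the exporter that passes iron to the blood, was at 803, 658 and 754 CPM at week 2 and at 52.4, 20.9 and 14.4 CPM at week 3 (log2 change -4.65 ± 0.52 SE, adjusted p = 2.64e-08). Slc11a2, the apical iron importer DMT1, fell from 321 to 415 CPM to 39.6 to 49.2 CPM. Vdr, the vitamin D receptor, rose by a log2 change of 1.27, and its known target S100g, an intracellular calcium carrier, was not called (log2 change 0.84, adjusted p = 0.364). Trpv6, the apical calcium channel, was at 0.0325 to 0.315 CPM over the 6 samples. In the retinol list of 13, 5 rose and 3 fell: Aldh1a1, which makes retinoic acid, had a log2 change of 2.95, and Lrat, which esterifies retinol for chylomicrons, one of -1.99.

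Glycan genes changed in both directions. Of 22 glycan transferases, 9 rose and 4 fell. St3gal3 and St3gal1, which add sialic acid, went from 54.4 to 69.4 CPM to 2.92 to 4.78 CPM and from 519 to 585 CPM to 88.8 to 118 CPM. B4galnt2 and B4galnt1, which add N-acetylgalactosamine, had log2 changes of 1.65 and 2.36. Fut2, the fucosyltransferase known to respond to the microbiota, was at 1.85, 2.85 and 2.31 CPM and then at 2.08, 1.04 and 1.92 CPM, so the ages overlapped, and it stood at 25.5, 91.2 and 23.0 CPM at week 4. Of the 4 alkaline phosphatases, the adult form Akp3 rose from 0.358 to 1.90 CPM to 6.42 to 9.72 CPM, a call that was lost without week 2 sample 1, week 2 sample 3 or week 3 sample 2 (adjusted p up to 0.0772). Alpi, the main intestinal form, had a log2 change of -0.62 that 10 alternatives did not call.

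**Figure D4:**
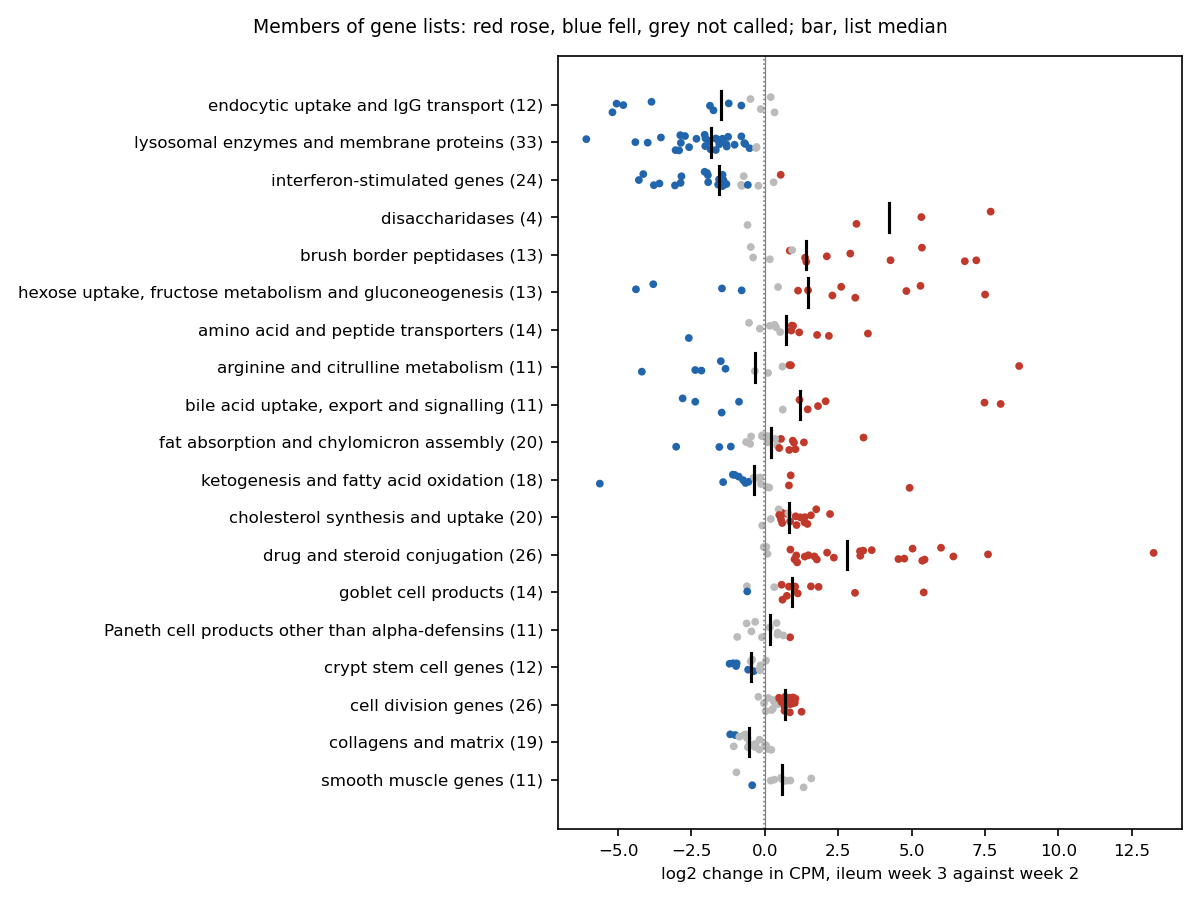
Log2 change in CPM from week 2 to week 3 for the tested members of 19 gene lists, with the number tested in parentheses; red points rose, blue points fell, grey points were not called, black bars are list medians and the dotted line is the median of all genes tested. The lysosomal and interferon lists lie almost wholly to the left of zero, and the detoxification and cholesterol lists almost wholly to the right.

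Among 23 transcription factors of enterocyte maturation, 6 rose and 5 fell. Prdm1, the repressor named above, was at 160, 143 and 149 CPM at week 2 and at 12.6, 12.4 and 11.4 CPM at week 3 (log2 change -3.63 ± 0.20 SE, adjusted p = 8.57e-16). Hnf4g and Klf4, which are tied to the mature epithelium, each rose by a log2 change of 1.64. The glucocorticoid surge before weaning is known to speed the change. Of 13 glucocorticoid response genes, 4 rose and 2 fell: Fkbp5, a chaperone induced by the glucocorticoid receptor, rose from 4.19 to 5.0 CPM to 145, 93.4 and 61.6 CPM, while Tsc22d3, another known target, had a log2 change of -0.07 (adjusted p = 0.838).

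Genes induced by interferon fell together. Of 24 listed, 18 fell, 1 rose and the median log2 change was -1.58. Ifit1, which binds viral RNA (chr19:34640871-34650009, plus strand), was at 283, 239 and 270 CPM at week 2 and at 15.5, 15.8 and 8.96 CPM at week 3 (log2 change -4.29 ± 0.26 SE, adjusted p = 1.54e-14). Irf7, a transcription factor of the response, had a log2 change of -1.41, and Gbp7, a guanylate-binding protein, one of -3.06. The rise was Oasl1, at a log2 change of 0.54 (adjusted p = 0.0483). Gbp7 was at 33.9 to 48.3 CPM at week 2, at 3.62 to 5.45 CPM at week 3 and at 17.3 to 25.4 CPM at week 4, so its week 4 level lay between the other two.

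Promoters of interferon-induced genes are known to share a response element. The stretch before Ifit1, chr19:34640639-34640870 on the plus strand of GRCm38.p6, is shown with the interferon response element in capitals, GAAA, any 2 bases and GAAA, which it holds 2 times on the reverse strand.
Ifit1: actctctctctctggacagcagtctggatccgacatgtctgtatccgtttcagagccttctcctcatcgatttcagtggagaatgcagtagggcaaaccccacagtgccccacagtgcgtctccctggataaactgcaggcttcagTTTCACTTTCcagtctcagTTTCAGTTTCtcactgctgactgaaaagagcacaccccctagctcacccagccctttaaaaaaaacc
Of the 15 listed interferon genes with a RefSeq window, 10 (66.7%) held the element on either strand, as did 3.99% of all genes and 3.81% of genes tested. They were Ifit1, Ifit3, Isg15, Oas1a, Oas1g, Rsad2, Gbp2, Gbp3, Gbp7 and Ddx60. The element is part of what defines such genes, so this describes the list and not the change.

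Secretory cell products differed by cell type. Goblet cell genes rose: 11 of 14 tested, with Muc13, a membrane mucin, as the 1 fall, and a median log2 change of 0.91. Zg16, a lectin that binds bacteria in mucus, went from 42.5, 24.9 and 37.4 CPM to 1439, 1632 and 1372 CPM (log2 change 5.41 ± 0.48 SE). Muc2, the main gel-forming mucin, rose from 622 to 817 CPM to 1046 to 1921 CPM. Clca1, an abundant goblet protease, rose by a log2 change of 0.82 (adjusted p = 0.0107). Muc3 is counted among the 11 rises, although it is a membrane mucin of the enterocyte brush border, and had a log2 change of 3.07.

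Few changes of Paneth cell products were called by week 3. Of 11 tested, Lyz1, Paneth cell lysozyme, was called as a rise (113, 211 and 241 CPM, then 306, 472 and 249 CPM, adjusted p = 0.0338), and 5 alternatives lost that call. Of 26 alpha-defensins tested out of 28 listed, 3 rose, and without week 3 sample 3, in which Defa21, Defa24, Defa29 and Defa38 were lowest in their group, 10 rose. Alpha-defensins are near-identical copies among which reads can be split, so single members are uncertain. Of these, Defa29 went from 3.34, 7.89 and 7.58 CPM to 19.7, 30.6 and 13.3 CPM. In the enteroendocrine list of 17, 1 rose (Tph1, of serotonin synthesis) and 2 fell (the hormone genes Gcg and Cck), and without week 2 sample 3 neither fall was called. The Cck call was lost under 14 of 15 alternatives, among them DESeq2 and each sample left out in turn. Chga, a general marker of these cells, had a log2 change of 0.31 (adjusted p = 0.259). Of 11 tuft cell genes, 4 rose from levels of at most 1.56 CPM, and without week 3 sample 3, 1 did.

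Epithelial genes known to respond to microbes were split. Of 21 tested out of 23 listed, 7 rose and 6 fell. Reg3g, an antimicrobial lectin, was at 7.64, 16.5 and 6.25 CPM at week 2 and at 32.1, 58.1 and 52.9 CPM at week 3 (log2 change 2.22 ± 0.46 SE, adjusted p = 0.000323). At week 4 it stood at 6206, 9051 and 6022 CPM, so the week 3 level was small beside the later one. Nos2, inducible nitric oxide synthase, followed the same order, with 0.521 to 0.654, 2.62 to 8.87 and 140 to 358 CPM at the 3 ages. Pigr, which carries IgA into the lumen, had a log2 change of 0.85 (adjusted p = 0.0294) that 5 alternatives lost.

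Genes of dividing cells and of stem cells moved in opposite directions. Of 26 cell division genes, 17 rose and none fell, with a median log2 change of 0.67. Mki67, expressed in cycling cells, was at 159, 149 and 151 CPM and then at 309, 240 and 189 CPM (adjusted p = 0.0157). Week 3 sample 1 was the highest, and without it 9 of the list rose, Mki67 not among them. With all 48 samples in the fit, 6 rose. Of 12 crypt stem cell genes, 6 fell and none rose. Lgr5, the stem cell receptor for R-spondins, went from 57.4 to 65.5 CPM to 24.6 to 33.5 CPM (log2 change -1.08 ± 0.23 SE), and Olfm4 from 1146 to 1267 CPM to 449 to 720 CPM, a call lost with all 48 samples (adjusted p = 0.148). With all 48 samples, 2 of the 6 falls were called.

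Signals between epithelium and mesenchyme changed in a few members. Of 19 tested genes of Wnt, hedgehog and villus mesenchyme signalling, 6 fell and 2 rose, and leaving out single samples left 2 to 6 falls and fitting all 48 samples left 1. Wnt5a, a Wnt ligand of the mesenchyme, fell from 23.8 to 30.6 CPM to 3.35 to 4.55 CPM (log2 change -2.76 ± 0.27 SE). Bmp2, a villus ligand that restrains proliferation, rose from 11 to 13.3 CPM to 31.4 to 34.8 CPM. Ereg, an EGF receptor ligand, was the sole rise of 11 genes of its family, from 4.86, 6.35 and 6.93 CPM to 44.4, 33.1 and 49.3 CPM. Of 18 clock genes, 7 rose and 5 fell. Nr1d1, a repressor of the clock, went from 4.03 to 4.97 CPM to 38.5 to 47.9 CPM and Bhlhe40, another repressor, from 260 to 314 CPM to 78.1 to 81.9 CPM; the labels used here give no time of day, so age and hour of collection cannot be told apart for these genes.

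Imprinted growth genes fell: 8 of 16, with no rise and a median log2 change of -1.21. Igf2, a fetal growth factor, went from 165, 173 and 180 CPM to 55.0, 63.4 and 57.4 CPM, and Cdkn1c, a cell cycle inhibitor, from 109 to 122 CPM to 17.2 to 23.8 CPM. Dlk1, another imprinted growth regulator, was at 0.228 to 1.22 and 0.810 to 2.01 CPM and was not called.

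Few changes of lymphocyte genes were called by week 3. Of 18 T cell and intraepithelial lymphocyte genes, the homing receptor Ccr9 rose and the receptor constant region Trac fell, and Cd3e, a subunit of the T cell receptor complex, was at 0.524, 0.739 and 0.293 CPM and then at 0.270, 0.675 and 1.15 CPM, against 7.95 to 13.3 CPM at week 4. Of 14 B cell and plasma cell genes, the chemokine gene Ccl20 alone was called, as a fall. Cd79a, the B cell receptor chain, was at 1.17 to 3.10 and 0.617 to 2.25 CPM. MHC class II genes fell in 5 of 11. Cd74, the invariant chain, went from 36.3 to 55.4 CPM to 18.1 to 30.3 CPM (adjusted p = 0.04), a call that 9 of 15 alternatives lost. Leaving out single samples left 1 to 5 of the list as falls. Of 15 macrophage and dendritic cell genes tested, 4 fell, 1 rose (Itgam) and 10 were not called, C1qa, C1qb, C1qc, Mrc1 and Lyz2 among them. With all 48 samples in the fit, 2 fell. Csf1r, the receptor for macrophage growth factor, fell from 129, 101 and 110 CPM to 15.1, 12.2 and 11.1 CPM (log2 change -3.14 ± 0.19 SE). Adgre1, a defining macrophage marker, was at 3.33 to 4.61 and 1.13 to 2.97 CPM and was not called (adjusted p = 0.0704).

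Markers of other layers and tissues bear on how far composition differed. Of 11 smooth muscle genes, 1 fell (Mylk, myosin light chain kinase), and the median log2 change was 0.58. With size factors by relative log expression that fall was not called, and with the 6 ileal samples alone 4 of the list rose. Summed levels were 287 to 351 CPM at week 2 and 246 to 288 CPM at week 3, most of it Mylk at 253 to 304 and 188 to 223 CPM, and Myh11, smooth muscle myosin, was at 4.36 to 11.4 and 11.8 to 19.2 CPM. Of 19 collagen and matrix genes, 2 fell (Col4a1 and Col4a2, of the basement membrane). In the list of enteric neuron and glia genes, Ret and S100b fell and the other 12 of 14 were not called; Elavl4, which marks neurons, was at 0.308 to 0.766 CPM over the 6 samples. Pancreatic acinar genes summed to 24.3 to 38 CPM at week 2 and 7.76 to 11.6 CPM at week 3, with the protease gene Ctrb1 as the single fall of 11 and amylase Amy2a5 at 0 in all 6 samples. In the colon and caecum list, Hoxb13, Hoxd13 and Hoxd12 had no count in any of the 6, and Hoxc10 had 3 counts in week 3 sample 3. Of its 4 tested genes, Cyp2c55 rose, Mettl7b and Slc37a2 fell and Car1 was not called. Their sum was 123 to 137 CPM at week 2 and 58.2 to 90.7 CPM at week 3. Of 5 lymph node and follicle genes tested, Madcam1 and Ccl21a fell, and with all 48 samples in the fit 0 did. That list summed to at most 9.22 CPM. The 5 tested fat tissue genes and the 7 red blood cell genes gave no call by edgeR or DESeq2, with 1 and 0 at an unadjusted p under 0.05. The part of these cell types in the results above was not tested.

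Outside the lists, the largest changes included genes that went from or to almost nothing. Slc5a12, a sodium-coupled lactate carrier, was at 0.110, 0.0844 and 0.0976 CPM at week 2 and at 117, 125 and 132 CPM at week 3 (log2 change 10.29 ± 0.81 SE). Pmp22, a membrane protein best known from peripheral myelin, went from 1.14 to 2.15 CPM to 547, 977 and 751 CPM. Krt20, a keratin of mature enterocytes, rose from 53.0 to 65.5 CPM to 1514, 2126 and 1542 CPM. It belongs to the list of ileal epithelial identity, in which 7 of 16 genes rose and 1 fell. Of these, Slc10a2, Fabp6, Slc51a, Slc51b and Fgf15 are also counted in the bile acid list. Hoxb6, Hoxb7, Hoxb8, Epcam and Cdh1 of the identity list were not called. Among the falls outside the lists were Fga and Fgb, the fibrinogen alpha and beta chains. At week 2 they were at 7.20, 12.7 and 14.1 CPM and at 5.60, 10.3 and 8.30 CPM. They had 1 and 2 counts over the 3 week 3 samples. Hyal5, a hyaluronidase, fell from 104 to 117 CPM to 0.0900 to 1.04 CPM, and Dio3os, the RNA opposite the thyroid hormone deiodinase gene, from 16.8 to 17.1 CPM to 1 count in all. The counting's use of strand is not given in the sources used here, so reads of Dio3os and of its opposite gene may not be separated.

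The same step in the duodenum, over 6 other samples, changed 5437 genes (25.2%), and 4048 genes were called in both regions in the same direction and 34 in opposite directions. The difference between the ileal and duodenal steps was tested in the same edgeR fit and was called for 672 genes (3.11%), 273 (1.26%) with the ileal change more positive and 399 (1.85%) with it more negative. Under size factors by relative log expression the split was 411 and 249, so its balance depends on the scaling. With all 48 samples in the fit, 113 differences were called.

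Genes of digestion, bile acid uptake and arginine breakdown were among those that rose further in the ileum. Sis was at a mean of 133 CPM in the week 2 duodenum and 20.6 CPM in the week 2 ileum, and reached 3524 and 4242 CPM. Its ileal log2 change exceeded the duodenal one by 2.95 ± 0.43 (SE, adjusted p = 7.6e-05). Slc10a2 had the largest called difference among genes named here, 6.23 ± 0.87 (SE, adjusted p = 9.13e-05), since its duodenal mean went from 0.651 to 2.36 CPM. Arg2 already stood at a mean of 15.7 CPM in the week 2 duodenum and rose to 397 CPM there (difference 4.00, adjusted p = 0.0024). Ggt1, Dpep1 and Fabp2 differed by 3.49, 2.40 and 2.46 in the same direction.

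Some falls also went further in the ileum. Slc40a1 had a difference of -3.14 ± 0.65 (SE, adjusted p = 0.00484), because its duodenal mean went from 936 to 328 CPM, and Slc11a2 one of -2.13. Ctsh fell further in the ileum by 2.09 on the log2 scale (difference -2.09, adjusted p = 6.34e-07). Abcc2 was among genes whose fitted changes had opposite signs, -1.47 in the ileum and 0.69 in the duodenum (difference -2.17, adjusted p = 0.000187). With all 48 samples in the fit the differences of Arg2, Slc11a2, Ctsh and Abcc2 were not called, and that of Slc11a2 was also lost without duodenum week 3 sample 1. Fcgrt, Dab2, Prdm1 and Lct had no called difference, at 0.13, -0.36, -0.52 and 0.00, with adjusted p from 0.356 to 1. The difference of the steps was not called for Fabp6 either.

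**Figure D5:**
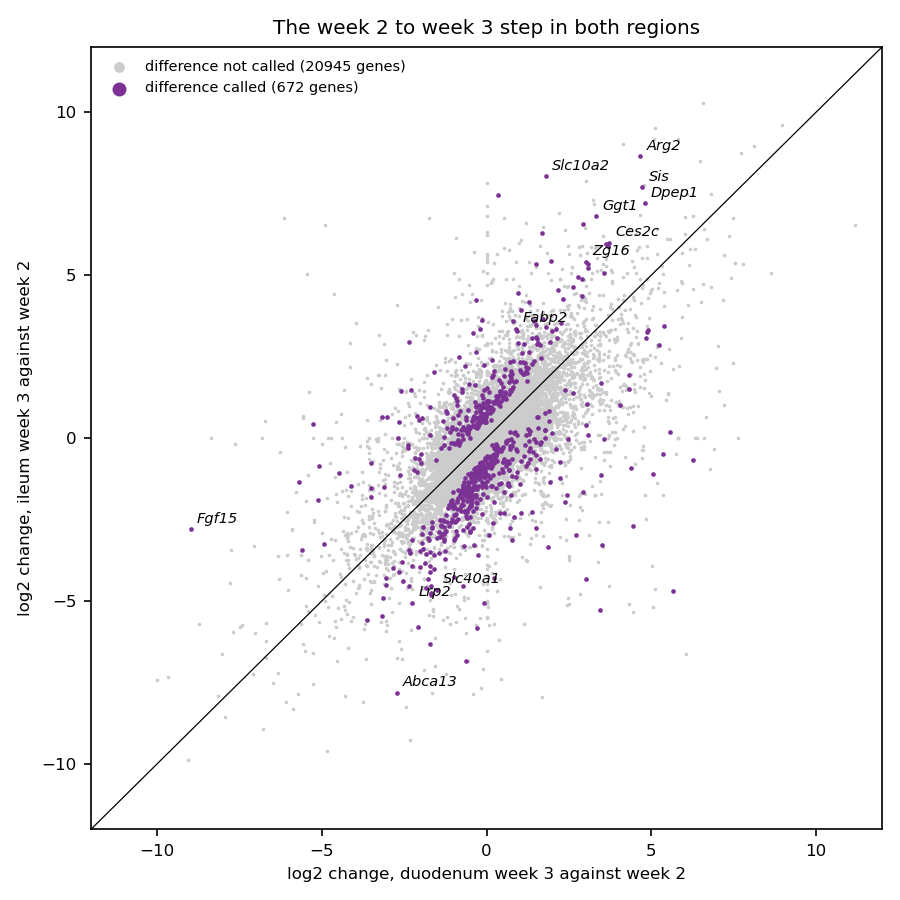
Log2 change of each gene from week 2 to week 3 in the duodenum (x axis) and the ileum (y axis), with the 672 genes whose changes differed by the edgeR test in purple and the line of equal change in black. Slc10a2, Arg2, Sis and Ggt1 lie above the line and Slc40a1, Lrp2 and Abca13 below it.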

How the data were processed

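RNA of the ileum at week 2 and week 3 (3 samples each) was compared within a fit of 40 of the series' 48 samples in 14 groups. The other 8 are the day 4 groups and the libraries labelled day 6 number 3, which the authors' normalized tables leave out. The authors deposited estimated counts per gene, and the submitters' processing notes name STAR 2.6.1d, Salmon 0.14.2, DESeq2 1.30.1 and mm10. The authors also deposited normalized signal tables, used here for gene symbols and for which samples they hold. Estimated counts were rounded, filtered with filterByExpr and scaled by trimmed means of M-values, and tested with edgeR 4.0.16 (robust quasi-likelihood, Benjamini-Hochberg adjustment over 21617 genes, 26 residual degrees of freedom). The difference of the ileal and duodenal steps was a contrast of the same fit. On data simulated with these samples and groups, edgeR recovered 41.7% of 2-fold and 80.4% of 4-fold changes, and 1.67% of calls were false. In that simulation each gene had the same mean in all groups, except for 193 of 20513 genes changed at ileum week 3. Rates under changes as widespread as those called here were not tested.

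Totals of 18843625 to 39548914 counts limit precision at low levels. Members and the 45 gene lists were chosen with earlier results of these data known. Named genes are the 10 largest called rises and falls, fixed anchor genes of each list, up to 2 further called members per direction, and every member of lists of 5 or fewer; some genes that this rule takes in are not reported here. Other genes named were chosen after their values were seen: they are list members not called, called alone in a direction, or holding a promoter motif. Cdx1 was added as a called member of the family that binds the Sis motif, and called members of the colon and lymph node lists were added likewise. Promoter windows (250 bases before to 50 after a start) are RefSeq's, build GRCm38.p6. In them 8 motifs were searched, on both strands. Of these, 4 are marked in the printed bases, and the PRDM1 motif is described without marking. Printed bases lie before both the RefSeq and the GENCODE start. Gene positions are from GENCODE M21 (GRCm38). Alternatives were other size factors, filters, DESeq2 1.42.0, other sample sets, a replicate block, a sex index, mitochondrial genes left out, and each sample left out.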

Additional observations from a re-analysis of the deposited data

Results flagged for a closer look

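For 33 genes named here, the log2 change from week 2 to week 3 differed between ileum and duodenum by the edgeR contrast, and each value is the ileal change minus the duodenal one. Digestive enzymes rose further in the ileum, with differences for Sis 2.95, Treh 2.26, Anpep 1.35, Dpep1 2.40 and Ggt1 3.49. Carriers and metabolic genes did likewise, with differences for Slc10a2 6.23, Slc51b 1.82, Fabp2 2.46, Arg2 4.00 and Angptl4 2.17. Detoxification, mucus, glycan and maturation genes and villus signals followed, at Ces2c 2.28, Zg16 2.38, B4galnt1 0.92, Krt20 1.95, Ihh 1.08 and Bmp2 1.55. Falls went further in the ileum for genes of uptake, the lysosome and sialic acid transfer, at Ctsh -2.09, Gla -1.64, Lrp2 -2.81, Lrpap1 -1.42 and St3gal3 -1.16. Enzymes of glucose and citrulline metabolism fell further in the ileum too, with differences for G6pc -1.86, Fbp1 -1.22, Asl -1.13 and Cps1 -0.91. Iron carriers and single genes of other lists gave differences for Slc40a1 -3.14, Slc11a2 -2.13, Ifit1 -1.23, Ret -1.27 and Abca13 -5.09. Fgf15 fell in the ileum but its duodenal mean went from 18.6 to 0.0269 CPM, so the difference was 6.18 (adjusted p = 0.0319). Abcc2 differed by -2.17 and Muc3, which rose further in the duodenum, by -1.77. Of the 33, 11 kept their call under all alternatives (Lrpap1, Sis, Anpep, Dpep1, Ggt1, Slc10a2, Slc51b, Fabp2, Slc40a1, Bmp2 and Krt20), 21 lost it with all 48 samples, and none changed direction. Of 21 alternatives, 17 lost the call for Cps1, 16 for each of Lrp2, Fbp1, Ifit1 and Ret, 8 for Muc3 and 6 for Fgf15, single samples left out among them. Calls for Ihh, Slc11a2, Zg16, Abca13 and B4galnt1 were lost under 2 to 4, in each case with at least 1 single sample left out.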

How the results depend on the processing

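The count of genes changed in the ileum lay between 4980 (all 48 samples) and 7456 (DESeq2) over the alternatives, against 7222. Leaving out each ileal sample in turn gave 6084 to 6837 calls, 2846 to 3532 rises, 3229 to 3512 falls and 3177 to 3657 changes over 2-fold. All 48 samples gave 2573 falls. The share of calls that rose ran from 42.5% to 52.6%. Differences between the regions were less stable than the ileal changes: DESeq2 called 1020, with 615 more positive, and all 48 samples called 113, with 80 more positive, 33 more negative and 105 over 2-fold. Size factors by relative log expression gave 411 more positive and 249 more negative, the mean count filter 479 more positive, no filter 197 more negative, the compared groups alone 230 and mitochondrial genes left out 244 more negative. Without single samples the differences called ran from 381 (without ileum week 2 sample 2) to 609, more positive from 179 to 384, more negative from 155 to 328 and over 2-fold from 288 to 445; the lower counts without duodenum week 2 sample 3, duodenum week 3 sample 2 and ileum week 2 sample 3 were 413, 430 and 440. The cause of these shifts was not tested.

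Replicate numbers are shared across ages, but deviations of same-numbered week 2 and week 3 samples correlated at -0.05, -0.09 and -0.16 over 14266 genes, so the numbers were not taken as pairs. That check covered the ileum only. Whether ileum and duodenum samples of the same number share a mouse is not labelled and was not tested. The contrast between the regions took them as independent. With the replicate block, 6950 genes were called, 2952 up and 3998 down, and 544 differences. Of 190 genes followed, 140 were called, 121 kept that call under every alternative, 19 lost it under some, and none reversed. Of the 50 not called, 12 were called under some alternative. At these depths genes under about 0.5 CPM rest on few counts, and groups of 3 leave small changes undetected.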
